A study of Mus musculus with 9 samples.

Results

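The circular RNAs described here are those of 2 mouse host genes, Lrp4 and Nos1, in differentiating C2C12 cells. They are all rows of the deposited circRNA table whose host identifier is that of Lrp4 (ENSMUSG00000027253) or Nos1 (ENSMUSG00000029361). The rule gave 20 of the 37751 circRNAs in the table, 15 from Lrp4 and 5 from Nos1, and 2 of its 6943 host genes. The pair of hosts was chosen by their back-splice reads in these libraries, which were higher at day 3 and day 6 than at day 0. Levels against day 0 are therefore given as a description with no test, and only day 6 was tested against day 3. That comparison shares its libraries with those that picked the hosts.

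A circRNA is a closed ring in which an exon's end is joined back to the start of the same or an upstream exon, and it is counted by reads across that back-splice junction. C2C12 is an immortalised mouse skeletal muscle myoblast line that can be brought to fuse into myotubes. Day 0 cells were proliferating in DMEM with fetal bovine serum before confluence, and day 3 and day 6 cells had been kept for that many days in DMEM with a lower percentage of horse serum. Each of the 3 time points had 3 libraries, which makes 9. Every group was the same line with no other agent or allele named, and the line grows in a dish without nerve. Whether the replicate libraries were made from separate cultures is not in the labels. The p-values therefore speak only of the spread among these libraries, which may be technical.

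LRP4 is a muscle membrane receptor of the low-density lipoprotein (LDL) receptor family. At the neuromuscular junction it binds agrin released by the motor nerve and activates the kinase MuSK, which acts with DOK7 and rapsyn to cluster acetylcholine receptors under the nerve ending. NOS1 is the neuronal nitric oxide synthase. In skeletal muscle it is held at the membrane by the dystrophin complex, and its nitric oxide raises cyclic GMP, which the phosphodiesterase PDE5 breaks down. The counts below are of circular junctions and not of these proteins or their mRNAs, since the table holds no linear reads.

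Library totals ran from 208787 to 443955 back-splice reads. The circRNAs of differentiated muscle marker hosts (9 of 17 listed) summed to 203 to 402 CPM (counts scaled to the same total in every library) at day 0, 9375 to 10902 at day 3 and 11051 to 14826 at day 6. Those of proliferation markers (14 of 14 listed) summed to 5847 to 7429, 1314 to 1841 and 555 to 1307 CPM. Most of the muscle sum was Ttn (mean 7463 CPM at day 3 and 9119 at day 6) and Ryr1 (2378 and 3635). Tnnt1 had means of 228 and 340 CPM, and the other listed muscle hosts at most 73.0 (Myh3 at day 6). The muscle hosts Myog and Mymk were not listed in any library. Of 10 neuronal marker hosts 2 were listed (Map2 and Tubb3), with sums of 0 to 64.2 CPM, and of 8 Schwann cell marker hosts only Pmp22, with 0 to 67.9 CPM. The other 8 neuronal and 7 Schwann cell markers, among them Rbfox3, Snap25 and Mbp, had no listed circRNA. Quiescent or reserve cell markers (2 of 6 listed, Pax7 and Cd34) summed to 29.5 to 158.0 CPM at day 0, 70.1 to 322 at day 3 and 158.6 to 278 at day 6. The lowest day 6 sum was thus barely above the highest day 0 sum. Pax7 was not called at day 6 against day 0 (edgeR, adjusted p = 0.380). The part of such cells in the Lrp4 and Nos1 levels was not tested. Adipocyte or osteoblast markers (2 of 10 listed, Pparg and Runx2) summed to 327 to 672, 490 to 869 and 380 to 634 CPM. In bulk libraries, fewer cells of a type and less RNA per cell cannot be told apart.

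Lrp4 lies on chromosome 2 (GRCm38, 91457511 to 91513779, plus strand), and its transcript Lrp4-201 has 38 exons in the GENCODE M21 annotation. Its leading circRNA joined the end of exon 16 back to the start of exon 14 (2:91480313-91481980) and held 4177 of the 4667 Lrp4 reads. Exons 14 to 16 add up to 518 nt, all of it coding, and a second circRNA from the same start closed after exon 15 (2:91480313-91480869, 395 nt). The third joined exon 34 to exon 32 (2:91500989-91502046), again 395 nt of coding sequence. Their junctions are shown because the bases there differ between these circRNAs. How the caller assigned reads to them is not given. Capitals mark the 25 bases after the junction, from the start of the first exon, and lower case the 25 bases before it. The sequences are those of the annotated transcript and were not read from the libraries.
Lrp4 exons 14 to 16 junction: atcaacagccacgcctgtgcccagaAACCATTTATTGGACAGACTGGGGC
Lrp4 exons 14 to 15 junction: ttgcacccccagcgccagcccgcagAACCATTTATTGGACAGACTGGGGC
Lrp4 exons 32 to 34 junction: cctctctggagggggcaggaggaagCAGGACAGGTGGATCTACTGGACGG
The first pair of lines share all their capitals and differ only before the junction. Exon 16 (2:91481858-91481980) is given next because it is what the leading circle holds and the shorter one lacks, with capitals for the 25 bases before the junction.
Lrp4 exon 16: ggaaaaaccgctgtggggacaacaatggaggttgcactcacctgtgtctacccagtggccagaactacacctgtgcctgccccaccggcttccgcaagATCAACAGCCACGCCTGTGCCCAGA

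Nos1 lies on chromosome 5 (GRCm38, 117781032 to 117958840, plus strand), and its annotated transcript used here has 29 exons. Its leading circRNA joined the end of exon 3 back to the start of exon 2 (5:117866839-117879410) and held 244 of the 284 Nos1 reads. Exon 2 carries the start codon, and exons 2 and 3 add up to 1215 nt, of which 837 are coding and 378 lie in the 5′ UTR. Exon 2 alone (5:117866839-117867926, 1088 nt) also closed on itself, with 15 reads. The junctions of both circles are shown with capitals for the 15 bases at the start of exon 2, which they share.
Nos1 exons 2 to 3 junction: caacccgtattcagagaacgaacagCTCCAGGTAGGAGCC
Nos1 exons 2 to 2 junction: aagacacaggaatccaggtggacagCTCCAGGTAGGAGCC
The 50 bases before exon 2 (5:117866789-117866838, plus strand, from the RefSeq promoter table of GRCm38.p6) are shown because 3 of the 5 Nos1 circRNAs start just after them, and capitals mark the AG next to the exon.
Nos1 bases before exon 2: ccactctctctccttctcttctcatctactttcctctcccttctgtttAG
Of the 20 bases before the AG, 19 were C or T. RefSeq also places a transcript start at this base (117866839), which is why the table holds the stretch. AG stood directly before the start, read on the gene's own strand, in 6.07% of the 32851 windows of the same 300 bases in the table. A match of letters is a description and not a measured splice site.

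Both ends lay at annotated exon edges in 12 of 15 Lrp4 circRNAs and in 5 of 5 from Nos1, and all 20 were on the strand of their host. None carried a circBase identifier, against 2.72% of all circRNAs in the table having one and 9.68% of those that passed the filter on low counts. Of the 15 Lrp4 circRNAs, 6 began at exon 14, with 4471 reads (95.8% of Lrp4 reads). The most used start had a median of 4 circRNAs over the 69 hosts with 15 circRNAs, and 26.1% of those hosts had at least 6. Of the 5 Nos1 circRNAs, 3 began at exon 2, with 261 reads (91.9%). Over the 435 hosts with 5 circRNAs the median was 2, and 32.2% had at least 3. The leading circle held 89.5% of Lrp4 reads, against a median of 37.7% over the 69 hosts, of which 2.90% reached that share. For Nos1 the share was 85.9%, against a median of 49.3% over the 435 hosts, of which 8.74% reached it. Lrp4 is itself counted among the 69 hosts and Nos1 among the 435. These hosts were matched on number of circRNAs and not on reads. The pair was picked by the same reads, so these shares are a description and not a test.

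**Figure D1:**
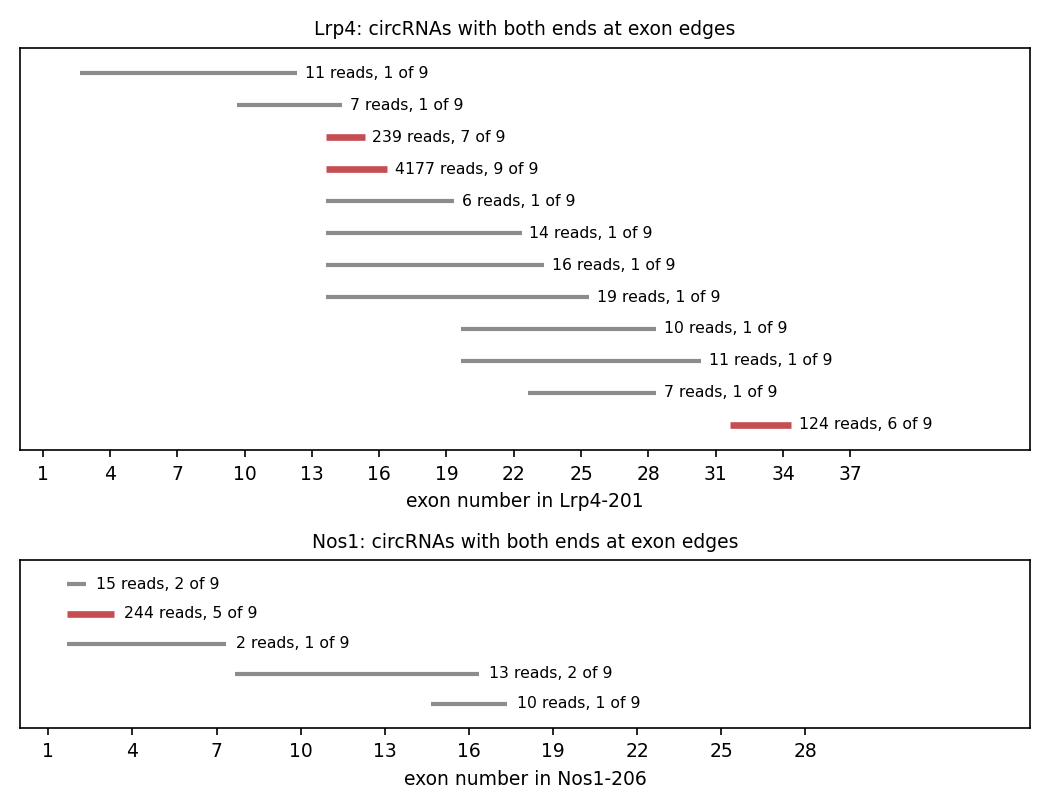
CircRNAs of Lrp4 (upper panel) and Nos1 (lower panel) with both ends at exon edges, as bars from their first to their last exon on an axis of exon numbers, labelled with reads summed over the libraries and the number of libraries of 9 that list them. Red bars passed the filter on low counts and gray bars did not, and 6 Lrp4 bars begin at exon 14 and 3 Nos1 bars at exon 2.

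Most of these circRNAs were rare. Of the 20, 4 passed the filter on low counts, 3 from Lrp4 and 1 from Nos1, and 8153 of all circRNAs (21.6%) did so. Of the 15 Lrp4 circRNAs, 12 were listed in 1 library each, with 6 to 19 reads, and together they held 2.72% of Lrp4 reads. Among all circRNAs, 61.4% were listed in 1 library. The smallest count above 0 in the table is 2, so a circRNA with 1 read in a library is listed there at 0.

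Lrp4 back-splice reads were more numerous in the differentiated than in the dividing cells, and most of the difference was already present at day 3. Summed over its circRNAs, Lrp4 had 144, 55 and 42 reads in the day 0 libraries, replicates 1 to 3. It had 561, 542 and 761 reads at day 3, and 579, 705 and 1278 at day 6. Scaled to CPM by the TMM-adjusted totals, the day 0 values were 425, 215 and 158 (mean 266 ± 141, SD, n = 3). Day 3 gave 1809, 1884 and 2222 (1972 ± 220) and day 6 gave 2783, 3010 and 2992 (2928 ± 126). Every library of day 3 and day 6 lay above every day 0 library. The ratio of means was 7.41 at day 3 and 11.0 at day 6, and the fitted log2 fold changes were 2.88 ± 0.26 and 3.45 ± 0.27 (SE). Day 0 replicate 1 was the highest of its group both for Lrp4 and for the muscle marker sum (402 CPM, against 203 and 207). Most of that sum was Ryr1 (366, 203 and 120 CPM in replicates 1 to 3). Ttn (35.4, 0 and 75.2 CPM) and Tnnt1 (0, 0 and 11.3 CPM) were instead highest in replicate 3. The part of such differences in the Lrp4 level was not tested.

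Of the 8153 circRNAs tested, 1.31% were called higher at day 3 than at day 0 and 1.47% at day 6 (edgeR quasi-likelihood test, adjusted p under 0.05), and of the 4115 hosts tested 3.04% and 3.86%. Both Lrp4 and Nos1 as hosts, and of their tested circRNAs 1 of 4 at day 3 and 2 of 4 at day 6, are among those calls, and nothing is read from this because the calls picked the hosts. By mean CPM, which at a junction does not scale with transcript length, the exon 14 to 16 circle ranked 622 among 19764 circRNAs listed at day 0. It ranked 50 among 19428 at day 3 and 23 among 17723 at day 6.

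**Figure D2:**
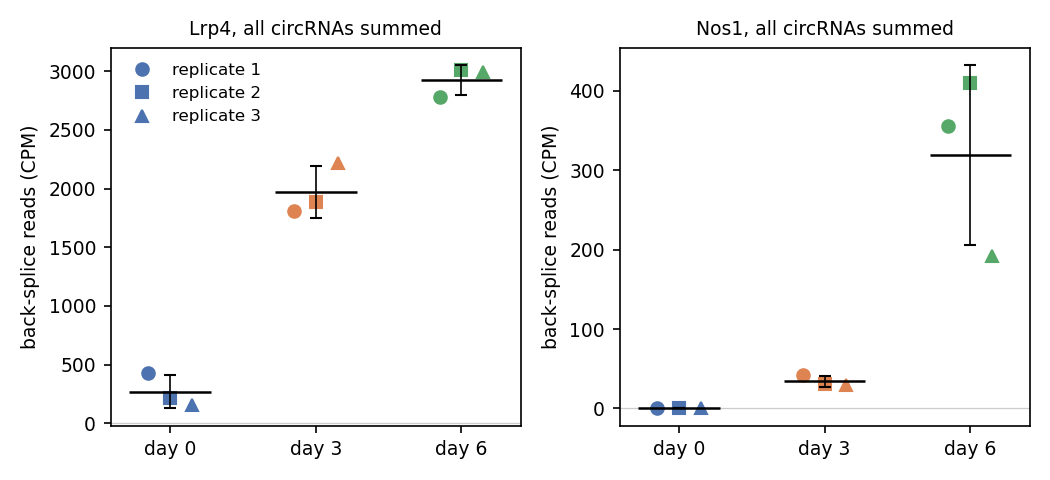
Back-splice reads in CPM (vertical axes, linear) for Lrp4 and Nos1 summed over all circRNAs of the host, at day 0, day 3 and day 6, with 1 symbol per replicate library, a horizontal line for the mean and bars for 1 SD. Lrp4 lies between 158 and 425 CPM at day 0 and between 2783 and 3010 at day 6, while Nos1 is at 0 in the day 0 libraries and between 192 and 410 at day 6.

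The exon 14 to 16 circle carried the Lrp4 level. It had 113, 55 and 42 reads at day 0, 493, 454 and 666 at day 3, and 521, 613 and 1220 at day 6. In CPM these were 353, 212 and 167 (244 ± 96.9), then 1583, 1592 and 1952 (1709 ± 211), then 2340, 2487 and 2888 (2572 ± 284; SD, n = 3 each). The 3 groups did not overlap, and the means stood at 7.0 times (day 3) and 10.5 times (day 6) the day 0 mean.

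The shorter circle of exons 14 and 15 followed at a much lower level. It had 15, 0 and 0 reads at day 0, 43, 28 and 27 at day 3, and 24, 55 and 47 at day 6. Its mean was 15.6 ± 27.0 CPM at day 0, 105 ± 30.1 at day 3 and 147 ± 65.6 at day 6. All of its day 0 reads came from replicate 1, and its day 3 and day 6 libraries overlapped.

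The exon 32 to 34 circle had no listed reads in the 3 day 0 libraries, 8, 45 and 39 at day 3 and 20, 7 and 5 at day 6. Its day 3 values were 25.7, 158 and 114 CPM (99.3 ± 67.3), and its day 6 values 89.8, 28.4 and 11.8 CPM (43.4 ± 41.1). Against a floor of 3 reads per library at day 0, the means were at least 9.06-fold higher at day 3 and at least 3.96-fold higher at day 6. Its day 3 and day 6 libraries overlapped. Reads of one PCR-amplified molecule are not independent, so floors and intervals here cover counting error only.

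**Figure D3:**
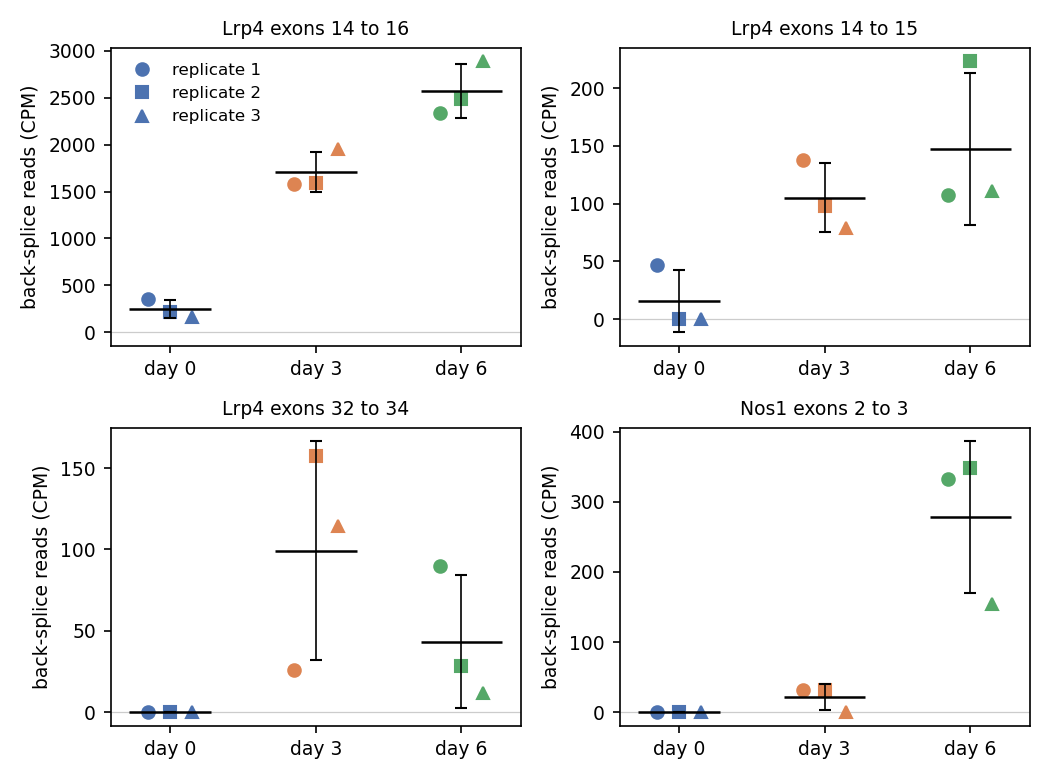
Back-splice reads in CPM (vertical axes, linear, a different range in each panel) for the 4 circRNAs that passed the filter, at day 0, day 3 and day 6, with 1 symbol per replicate library, a line for the mean and bars for 1 SD. The Lrp4 exon 14 to 16 circle reaches 2572 CPM on average at day 6, against 147 for exons 14 to 15, 43.4 for exons 32 to 34 and 278 for Nos1 exons 2 to 3.

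The makeup of the Lrp4 reads was compared by library between day 3 and day 6. At day 3 the leading circle held 87.9%, 83.8% and 87.5% of Lrp4 reads, with Wilson 95% intervals of 84.9 to 90.3%, 80.4 to 86.6% and 85.0 to 89.7%. At day 6 it held 90.0%, 87.0% and 95.5%, with intervals of 87.3 to 92.2%, 84.3 to 89.2% and 94.2 to 96.5%. The means were 86.4% ± 2.28 and 90.8% ± 4.31 (SD, n = 3 each), a difference of 4.41 percentage points (exact two-sided permutation test, p = 0.3, where 3 against 3 libraries cannot go below 0.1, so none of these share tests could pass). The difference was 2.08 points without day 6 replicate 3 and 6.34 without day 6 replicate 2. At day 0 the share was 78.5% in replicate 1 (interval 71.1 to 84.4%) and 100% in replicates 2 and 3 (lower bounds 93.5% and 91.6%).

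A further 3 shares were chosen after the counts were seen, and p-values were adjusted over 4 Lrp4 shares by the Benjamini-Hochberg method. Of reads closing after exon 15 or exon 16, exon 15 took 5.91% ± 2.06 at day 3 and 5.45% ± 2.44 at day 6 (exact permutation test, p = 0.9, adjusted p = 0.9). The exon 32 to 34 circle made up 4.95% ± 3.44 of Lrp4 reads at day 3 and 1.61% ± 1.62 at day 6 (exact p = 0.2, adjusted p = 0.4). CircRNAs starting at exon 14 made up 91.8% ± 3.38 and 97.9% ± 1.57 (exact p = 0.1, adjusted p = 0.4). The leading circle's own adjusted p was 0.4. These groups did not overlap only for the exon 14 start, where day 3 ranged from 88.9 to 95.5% and day 6 from 96.5 to 99.6%.

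**Figure D4:**
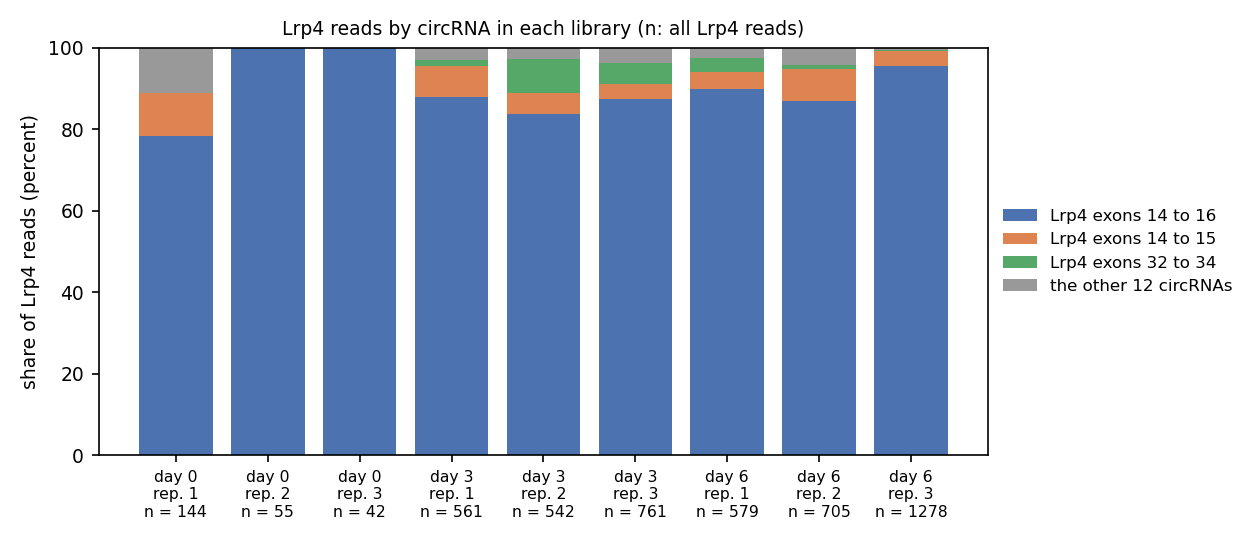
Share of Lrp4 back-splice reads in percent (vertical axis) on each of 3 circRNAs and on the other 12 together, stacked for each of the 9 libraries, with the number of Lrp4 reads under each bar. The exon 14 to 16 circle makes up 78.5 to 100% of each bar, and the exon 32 to 34 circle is largest in day 3 replicate 2, at 8.30%.

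Nos1 circRNAs had no listed reads at day 0, few at day 3 and more in each day 6 library. The host sums were 0, 0 and 0 reads at day 0, 13, 9 and 10 at day 3, and 74, 96 and 82 at day 6. In CPM, day 3 gave 41.9, 31.3 and 29.2 (34.1 ± 6.83) and day 6 gave 356, 410 and 192 (319 ± 113; SD, n = 3 each). Against a floor of 3 reads per library at day 0, the day 3 mean was at least 3.21-fold higher and the day 6 mean at least 30.1-fold higher. No library of one time point overlapped those of another.

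The exon 2 to 3 circle had 10, 9 and 0 reads at day 3 and 74, 86 and 65 at day 6, and none were listed at day 0. These were 32.1, 31.6 and 0 CPM at day 3 (21.2 ± 18.4) and 332, 349 and 154 at day 6 (278 ± 108). The lower bounds against day 0 were 1.94-fold at day 3 and 25.4-fold at day 6. It ranked 6260 among the circRNAs listed at day 3 and 575 among those of day 6. In day 3 replicate 3 the host's 10 reads all fell on a circle of exons 8 to 16 (5:117900471-117914442), which had 3 more reads in day 6 replicate 3. The exon 2 circle had 3 reads in day 3 replicate 1 and 12 in day 6 replicate 3. The other Nos1 circles were listed only in single day 6 libraries, exons 2 to 7 with 2 reads and exons 15 to 17 with 10.

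Between day 3 and day 6, no Lrp4 or Nos1 host or circRNA passed the adjusted threshold in edgeR. In that comparison 0.0729% of tested hosts and 0.0613% of tested circRNAs were called in either direction, and 0.0243% of hosts and 0% of circRNAs were called higher. Lrp4 as a host was 1.49 times as high at day 6, or 0.57 ± 0.24 (SE) on the log2 scale (edgeR, adjusted p = 0.737), with 3 of 3 day 6 libraries above all day 3 libraries. Nos1 was 9.35 times as high, or 3.21 ± 0.98 on the log2 scale (edgeR, adjusted p = 0.709), also without overlap. How many of all hosts or circRNAs separated in this way, here or against day 0, was not counted. Nothing is therefore read from a lack of overlap. DESeq2, run as an alternative, called Nos1 (adjusted p = 0.00464) and did not call Lrp4 (adjusted p = 0.218). Over all hosts at day 6 against day 3, DESeq2 called 20 and edgeR 3. An exact permutation test of the host CPM gave p = 0.1 for each, the smallest that 3 against 3 libraries allow.

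Of the 4 circRNAs tested, 2 had an unadjusted p under 0.05 in edgeR, against 4.34% of tested circRNAs. For the Lrp4 exon 14 to 16 circle the log2 fold change came to 0.59 ± 0.24 (edgeR, adjusted p = 0.664). The Nos1 exon 2 to 3 circle had 3.69 ± 1.25 (edgeR, adjusted p = 0.664), and it was the 1 circRNA of these that DESeq2 called (adjusted p = 0.0468). It passed the filter, which asks for 3 libraries, only with its day 6 libraries, the group where it is high, so the call is not independent of the filter. The exon 14 to 15 circle had 0.49 ± 1.22 and the exon 32 to 34 circle -1.19 ± 1.92, each with an adjusted p of 1 in edgeR. With 1 library left out, the latter ran from -2.27 (without day 6 replicate 1) to -0.72 (without day 3 replicate 2).

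The other genes of the pathways were taken as 3 lists of hosts, of which 56 of 85 genes were listed with a circRNA and 34 were tested. At day 3, 3 of the 34 were called higher than at day 0 and none lower, against 3.96% of tested hosts called in either direction (3.04% higher, 0.923% lower). At day 6, 3 were called higher and 1 lower, against 5.66% (3.86% higher, 1.8% lower). Between day 6 and day 3 none was called in edgeR, with 2 of 34 at an unadjusted p under 0.05, against 5.98% of tested hosts, and 1 was called in DESeq2. The comparisons with day 0 share the day 0 libraries. The lists were chosen with earlier results of these data known, so setting their calls against all hosts is not an independent test.

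In the postsynaptic list, 17 of 35 genes were tested, and 1 was called higher at each time point. This was Macf1, a linker of actin filaments and microtubules, which rose from 321 ± 136 CPM at day 0 to 1705 ± 301 at day 3 and 2202 ± 425 at day 6. Its log2 fold changes were 2.41 ± 0.26 and 2.78 ± 0.27 (edgeR, adjusted p = 4.6e-08 and 1.5e-09), with 3 of 3 libraries above day 0 each time. Cttn, which encodes the actin-binding protein cortactin, fell from 186, 160 and 124 CPM at day 0 to no listed reads in the 3 day 6 libraries. Set at a floor of 3 reads per library, day 6 was 13.7-fold lower (edgeR, adjusted p = 0.0320), which is not a strict bound for a host sum. That call was lost in DESeq2 (adjusted p = 0.0554) and without any one of the day 0 libraries (edgeR, adjusted p up to 0.0692). Outside day 0, Cttn had reads only in day 3 replicate 2 (97.3 CPM). It passed the filter, which asks for 3 libraries, only with its day 0 libraries, the group where it is high. The call is therefore not independent of the filter.

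The kinase Musk had 38.5 ± 33.4 CPM at day 0, 113 ± 104 at day 3 and 99.2 ± 44.5 at day 6. Its log2 fold changes of 1.54 ± 1.28 and 1.34 ± 1.28 did not pass (edgeR, adjusted p = 0.759 and 0.734). The day 3 value was 0.47 without day 3 replicate 3 and 0.95 without day 0 replicate 2, and the day 6 value 0.75 without day 0 replicate 2. Its partners had too few reads for the test, with 3 reads for the ligand Agrn (day 0 replicate 2), 28 for the adaptor Dok7 and 16 for the scaffold Rapsn (day 6 replicate 1), each on 1 circRNA. The Dok7 reads lay in day 3 replicate 3 and day 6 replicates 1 and 2. The list's median log2 fold change was -0.28 at day 3 and -0.23 at day 6, and over all hosts tested it was -0.02 and -0.13.

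In the LDL receptor family, to which LRP4 belongs, 6 of 14 genes were tested and none was called in the 3 comparisons. The Wnt co-receptors Lrp5 and Lrp6 had log2 fold changes of 0.29 ± 0.30 and -0.08 ± 0.30 at day 3, and 0.13 ± 0.30 and -0.16 ± 0.30 at day 6. The family's median was -0.05 at day 3 and -0.22 at day 6.

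In the nitric oxide and dystrophin complex list, 11 of 36 genes were tested, and 2 were called higher at each time point and none lower. Utrn, which encodes the dystrophin relative utrophin, rose from 2507 ± 265 CPM to 6388 ± 573 at day 3 and 7520 ± 231 at day 6. Its log2 fold changes were 1.35 ± 0.15 and 1.58 ± 0.15 (edgeR, adjusted p = 6.8e-08 and 1.5e-09), without overlap with day 0. Pde5a, which encodes the cyclic GMP phosphodiesterase, rose from 871 ± 294 CPM to 1627 ± 46.6 at day 3 and 1521 ± 395 at day 6. These were log2 fold changes of 0.90 ± 0.24 and 0.80 ± 0.24 (edgeR, adjusted p = 0.0262 and 0.0435), and the day 6 libraries overlapped day 0. The Pde5a calls were lost under several alternatives, with adjusted p up to 0.190 at day 3 and 0.274 at day 6 in edgeR. Leaving out day 0 replicate 2 or 3 ended both calls, leaving out day 3 replicate 1 the first, and leaving out day 6 replicate 2 or 3 the second.

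Dmd, the dystrophin gene, had no listed reads at day 0 or day 3 and 81.7, 115 and 227 CPM at day 6 (141 ± 76.1). Against a floor of 3 reads per library, the day 6 mean was 13.3-fold above day 0 and 14.7-fold above day 3, which are not strict bounds for a host sum. Neither comparison passed in edgeR (adjusted p = 0.0525 and 0.709). DESeq2 gave adjusted p = 0.0015 and 0.0149, and edgeR without a day 3 library 0.0260 to 0.0348 against day 0. Dmd passed the filter only through day 6, the group where it is high, so these calls are not independent of the filter. The NOS1 adaptor Nos1ap had 13 reads in day 3 replicate 1, too few to test. The list's median log2 fold change was 0.61 at day 3 and 0.80 at day 6, the latter 0.92 with hosts absent from a group set at the floor of 3 reads. The other synthases Nos2 and Nos3, and the guanylate cyclase subunits Gucy1a1, Gucy1a2 and Gucy1b1, had no circRNA in the table.

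**Figure D5:**
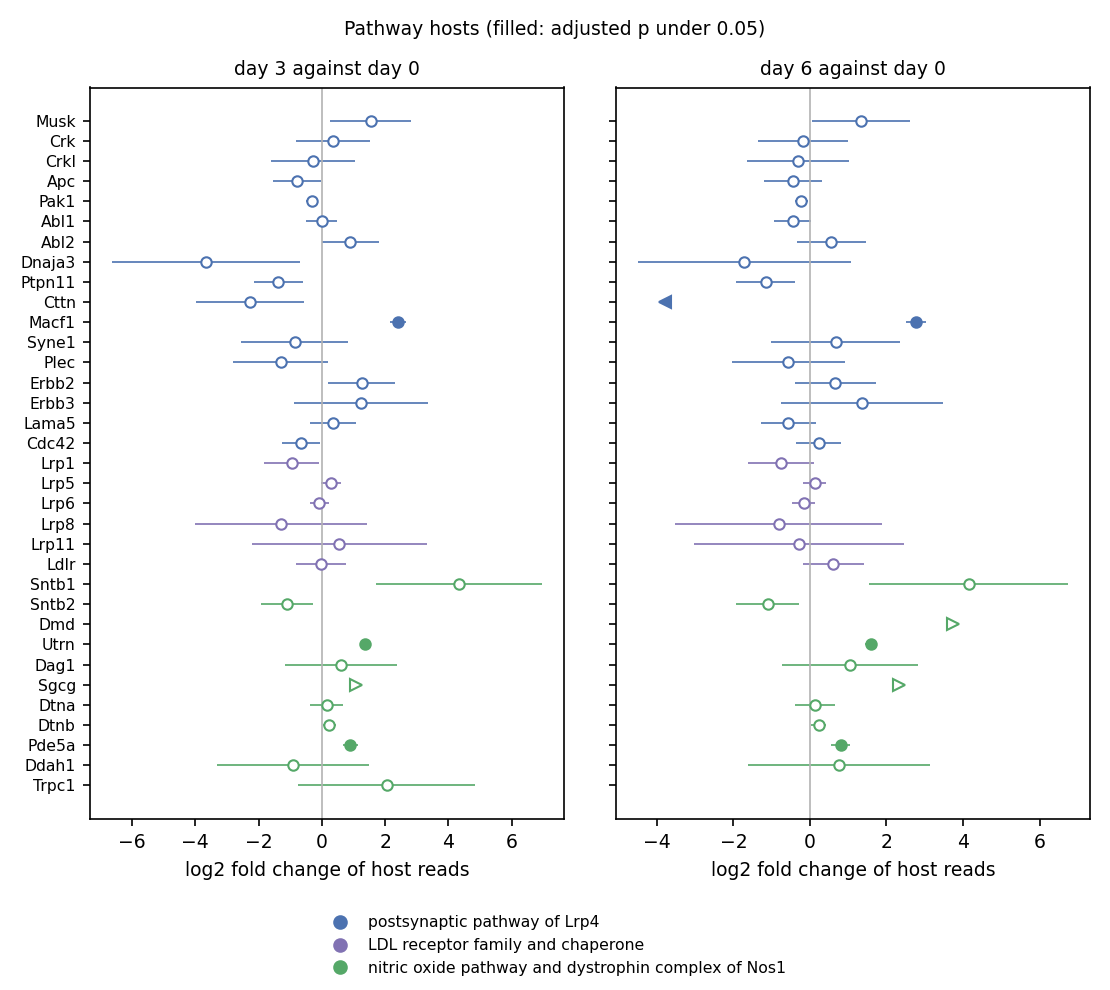
Log2 fold change of host back-splice reads (horizontal axes) for tested hosts of the 3 lists, day 3 against day 0 (left) and day 6 against day 0 (right), with bars for 1 SE and filled symbols for an adjusted p under 0.05 in edgeR. Triangles are values against a floor of 3 reads per library where a group had no listed reads, and Macf1 (2.41 and 2.78) and Utrn (1.35 and 1.58) are filled in both panels.

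The hosts whose levels moved most like Lrp4 over the 9 libraries were Ryr1, Dock4 and Pinx1. Likeness was the root mean square difference of centred log2 CPM, and it was 0.291, 0.430 and 0.493, against a median of 1.98 over 4114 hosts. Since the hosts were picked by this value, their place below the median was fixed in advance, here and for Nos1. Ryr1, which encodes the calcium release channel of muscle and is in the muscle marker list, had 230 ± 125 CPM at day 0, 2378 ± 300 at day 3 and 3635 ± 683 at day 6. Dock4 had 31.4 ± 21.7, 167 ± 21.0 and 223 ± 22.4 CPM. Pinx1 had no listed read at day 0, unlike Lrp4, so its likeness there rests on the prior count of 2 in the log2 values, and it had 72.1 ± 19.4 CPM at day 3 and 88.1 ± 29.7 at day 6. For Nos1 they were Filip1, Pkhd1 and Cdh23, with differences of 0.706, 0.872 and 0.896 against a median of 2.57. None of these 3 had a listed read at day 0, nor had Nos1, so their likeness there also rests on the prior count. Pkhd1 had 152 ± 45.0 CPM at day 3 and 933 ± 179 at day 6.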

How the data were processed

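Back-splice reads were taken from the table of raw counts per circRNA and library that the authors deposited for 9 libraries of C2C12 cells. Per the submitters' processing notes, BWA and the builds GRCm38.p4 and mm10 were used. The circRNA caller, its filters and any removal of duplicates are not given in the sources read. Per the labels' protocols, total RNA went through a bead clean-up and DNase treatment meant to enrich circRNAs and then into an mRNA-seq kit, with no digestion of linear RNA named. Counts were tested as deposited with edgeR 4.0.16 in R 4.3.3 (quasi-likelihood F-test, TMM on library totals, filterByExpr with minimum count 5 and minimum total 15, all 9 libraries, no block, Benjamini-Hochberg over all features tested, threshold 0.05), for 8153 circRNAs and, summed per host, for 4115 hosts. CPM values use the same TMM-adjusted totals, computed apart for circRNAs and for hosts. Standard errors are the absolute log2 fold change over the square root of F, since edgeR gives none. Exact permutation tests of shares over libraries were two-sided (scipy 1.17.1). Exons and transcript sequences are from GENCODE M21, and 6861 of 6943 host identifiers matched a symbol. The script was tested on simulated data.

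The members and the gene lists were chosen with earlier results of these data known. Named with values per library are the circRNAs of Lrp4 and Nos1 that passed the filter, with the others given by counts and structure. Pathway hosts are named where they passed the threshold in any comparison, plus Agrn, Musk, Dok7, Rapsn, Nos1ap, Dmd and Utrn, and for like patterns the 3 nearest hosts by log2 CPM (prior count 2). Lrp5, Lrp6 and the unlisted genes named were added after the values were seen. Alternatives were DESeq2 1.42.0, library totals without TMM, other filters, the compared groups alone, a replicate block and each library left out. Another host that the naming rule takes is not reported here. The intron sequences around these exons were not analysed here.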

Additional observations from a re-analysis of the deposited data

How the results depend on the processing

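The direction of Lrp4 and Nos1 host reads at day 6 against day 3 held in all 15 alternatives, with log2 fold changes of 0.51 to 0.66 for Lrp4 and 2.98 to 3.46 for Nos1, the extremes coming from leaving out 1 library. Every day 6 library lay above every day 3 library for both hosts, so leaving out 1 library could hardly turn the direction. Lrp4 passed the threshold in none of the 15 alternatives (adjusted p 0.218 to 0.836 over edgeR and DESeq2). Nos1 passed in 1, DESeq2 (log2 fold change 3.27, adjusted p = 0.00464). DESeq2 also called 1 of the 4 circRNAs in that comparison, where edgeR called 0, and 1 pathway host, Dmd, where edgeR called 0. The cause was not tested. How many of all circRNAs DESeq2 called was not counted, so the 1 of 4 has no share beside it and nothing is read from it. DESeq2 called 290, 464 and 20 hosts over all (day 3 and day 6 against day 0, day 6 against day 3), where edgeR called 163, 233 and 3. Of the edgeR calls against day 0, 125 and 159 were higher, against 171 and 249 of the DESeq2 calls and 97 and 121 of 145 and 213 with library totals. The median of all hosts moved from -0.02 to -0.15 at day 3 and from -0.13 to -0.24 at day 6 with library totals. Pathway hosts called at day 6 against day 0 ran from 2 to 5 with 1 library left out, with 2 without day 0 replicate 2 and 2 without replicate 3, against 4. Musk at day 6 against day 3, had a log2 fold change of -0.20 ± 1.24 and ran from -0.61 to 0.88 with 1 library left out. It turned to 0.19 with the replicate block, 0.88 without day 3 replicate 3 and 0.04 without day 6 replicate 3, at an adjusted p of 1 in edgeR each time.

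No pairing of libraries by replicate number was seen: the correlation of deviations between same-numbered libraries lay between -0.03 and 0.01. Counting error in features with few reads can hide a pairing, so these values do not exclude one. With the replicate block the log2 fold changes at day 6 against day 3 were 0.57 for Lrp4 and 3.16 for Nos1. Described against day 0, Lrp4 ran from 2.62 to 3.38 at day 3 and from 3.19 to 3.95 at day 6 with 1 library left out, highest without day 0 replicate 1. With 9 to 13 Nos1 reads per day 3 library, depth limits every statement on its day 3 level.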

Other observations

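Of the 15 Lrp4 circRNAs, 3 did not have both ends at exon edges, and each was listed in 1 library. One with 8 reads in day 3 replicate 2 lay inside intron 23 (2:91492098-91492325, 228 bp). It began at the base after exon 23 and ended 19 bases before exon 24. Another, with 6 reads in day 3 replicate 1, ran from the start of exon 35 into exon 38, the last exon, and ended 3 bases before the last coding base (2:91505593-91511755). The third, with 12 reads in day 3 replicate 3, began 10 bases inside exon 2 and ended 45 bases before the end of exon 4 (2:91471139-91473626).

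The letters of the Nos1 exon 2 to 3 circle hold the host's start codon 378 bases after the junction. Read around the circle, whose 1215 nt are a multiple of 3, the frame from that codon runs for 294 codons and meets a stop that begins 45 bases past the junction. In the circle of exon 2 alone the frame runs for 239 codons, with a stop 7 bases past the junction. In the Lrp4 exon 14 to 16 circle the longest frame from an ATG has 216 codons and also crosses the junction. These are properties of the annotated letters, and translation was not measured.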
